A study of Mus musculus with 4 samples.

Results

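The nuclear genes that bring proteins into mitochondria were followed in soleus muscle, the slow-twitch postural muscle of the hindlimb, of dystrophin-deficient *mdx* mice. Members were taken by gene name and by machinery: the TOM and TIM translocases, the import motor, the small TIM chaperones, the oxidative folding relay of the intermembrane space, the SAM complex and the presequence peptidase. These were 37 of the 24054 gene symbols measured, and 35 of them passed the filter on low counts. The naming rule uses no expression value. RNA-seq libraries of soleus compared 2 mice given cardiosphere-derived cells of mouse origin (mCDCs) with 2 given vehicle, each library being 1 muscle. All mice were female animals of the strain C57BL/10ScSn-DMD mdx/J, so the controls carried the dystrophin mutation as well, and no wild-type soleus was in the comparison. Infusions into the femoral vein were given monthly for 12 months from 8 weeks of age. The mCDCs were at passage 5 and had been grown from the heart of a wild-type C57BL/10ScSn/J mouse, a single cell preparation, and vehicle was the culture medium IMDM without cells. The comparison asks how import gene expression differed between the muscles after a year of cell therapy. With 2 against 2 libraries, an exact permutation test of any single value cannot give a p below 0.333.

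Nearly all mitochondrial proteins are encoded in the nucleus, made in the cytosol and imported. The TOM complex is the common entry gate of the outer membrane, TIM23 with its ATP-driven motor takes presequence proteins into the matrix, TIM22 inserts carrier proteins into the inner membrane, and the small TIMs chaperone hydrophobic precursors between the membranes. The soleus is rich in oxidative fibres, which rely on mitochondrial respiration for their ATP.

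The stretch just upstream of the RefSeq start (GRCm38.p6) was read for members, because the members as a group lay higher with mCDCs (below) and promoter letters are a property that the naming rule did not use. Windows of 250 bases were found for 33 of the 37 members, 35 windows in all because some members have more than 1 start. Shown here are the windows of Timm10, Timm23, Tomm20 and Timm8b. With all 4 libraries in the fit, Timm10 had the largest difference between the groups among members. Timm23 had the highest level per length, and Tomm20 and Timm8b between them hold all the other motif names found in members. Capitals mark matches to the motifs searched, on either strand, and the regions are chr2:84826771-84827020 (plus strand), chr14:32201892-32202141 (minus), chr8:126945922-126946171 (minus) and chr9:50603651-50603900 (plus).
Timm10: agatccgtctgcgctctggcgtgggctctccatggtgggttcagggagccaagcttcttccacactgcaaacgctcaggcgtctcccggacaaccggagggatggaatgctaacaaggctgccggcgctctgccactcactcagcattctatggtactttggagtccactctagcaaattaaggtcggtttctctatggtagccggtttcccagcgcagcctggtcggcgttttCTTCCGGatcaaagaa
Timm23: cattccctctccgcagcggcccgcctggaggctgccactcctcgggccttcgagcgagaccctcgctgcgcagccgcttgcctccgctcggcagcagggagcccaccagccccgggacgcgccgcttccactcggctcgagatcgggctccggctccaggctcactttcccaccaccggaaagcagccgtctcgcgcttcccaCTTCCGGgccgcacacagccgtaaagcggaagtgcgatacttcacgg
Tomm20: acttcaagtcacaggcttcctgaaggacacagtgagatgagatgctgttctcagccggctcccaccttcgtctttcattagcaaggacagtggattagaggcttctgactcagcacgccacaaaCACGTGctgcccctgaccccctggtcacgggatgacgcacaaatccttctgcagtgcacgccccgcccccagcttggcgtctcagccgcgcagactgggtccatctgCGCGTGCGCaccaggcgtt
Timm8b: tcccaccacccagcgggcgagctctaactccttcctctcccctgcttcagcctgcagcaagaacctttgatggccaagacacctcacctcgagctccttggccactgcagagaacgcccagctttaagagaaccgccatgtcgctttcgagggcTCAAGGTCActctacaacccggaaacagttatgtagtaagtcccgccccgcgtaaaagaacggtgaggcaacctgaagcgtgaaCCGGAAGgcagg
The capitals in Timm10 and Timm23 are the ETS letters CCGGAAG read on the opposite strand, 16 and 47 bases before the start. In Tomm20 they are an E-box (CACGTG) and an NRF1 motif (GCGCANGCG, opposite strand), and in Timm8b an ERR motif (TNAAGGTCA) and an ETS motif. ETS proteins such as GABP, and NRF1, are known regulators of nuclear genes for mitochondria. The ETS letters were in 14 of the 35 member windows, or 40%, against 6.91% of the 32851 promoter windows in the reference and 12.6% of those of the genes tested here. Among the genes of the mitochondrial ribosome the share was 23.0%, and among the nuclear genes of the respiratory chain and ATP synthase it was 17.1%. NRF1 letters were in 4 member windows (11.4%, against 10.2% of the tested genes' windows), the E-box in 4, the ERR letters in 1, and the YY1 letters (AAGATGGC) and the CRE (TGACGTCA) in none. The 12 tested members with ETS letters had a median log2 fold change of 0.20 and the 19 without had 0.23, and these medians were not tested against each other. A match to letters is a description of the window and says nothing about which factor binds there.

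Import genes made up 0.222% to 0.253% of the 22481391 to 27187425 expected counts of each library. Levels are given in CPM, which are counts adjusted for library size with TMM factors, and, where genes are compared with each other, in CPM per kilobase of the median transcript length. Per length, the order ran from Timm23, the channel of the inner membrane, at a mean of 331.7 CPM per kilobase over the 4 libraries, through its partner Timm17a at 225.5 and the small TIM Timm13 at 124.9, to Pmpcb, the catalytic subunit of the presequence peptidase, at 108.5. Lowest among the tested protein-coding members were the intermembrane space oxidoreductase Chchd4 at 8.38, the cytosolic cochaperone Tomm34 at 8.12 and the exchange factor Grpel2 at 5.69. Of the 34 pairs of neighbours in this order, 27 overlapped between libraries in CPM per kilobase.

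Some members could not be read well. Tomm20l, a relative of the TOM receptor Tomm20, had 1 count in mCDC replicate 1 and none in the other 3 libraries, and Timm8a2, a relative of the small TIM Timm8a1, had none in any library, which allows up to 3 counts, or 0.109 to 0.137 CPM per library. For 5 members at least 40% of their 31-base words also occur in other annotated transcripts: Tomm6 (77.3%), Timm23 (63.5%), Tomm40l (59.6%), Tomm6os (44.3%) and Timm8a1 (41.8%). Expected counts were not whole in any library for Tomm6, Tomm40l and Tomm6os, so their reads were in part divided between genes, whereas Timm23 and Timm8a1 had whole counts in all 4. The counting of strand was not given in the sources used here, so reads where Tomm6 and its antisense RNA Tomm6os overlap cannot be assigned to either with certainty, and the values given for both below carry this limit. Of the 35 tested members, 22 had under 10% of such words, and 17 of these were higher in both mCDC libraries, with a median log2 fold change of 0.23, against 25 of all 35 and a median of 0.22. Of all genes tested, 19.2% were higher in both.

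**Figure D1:**
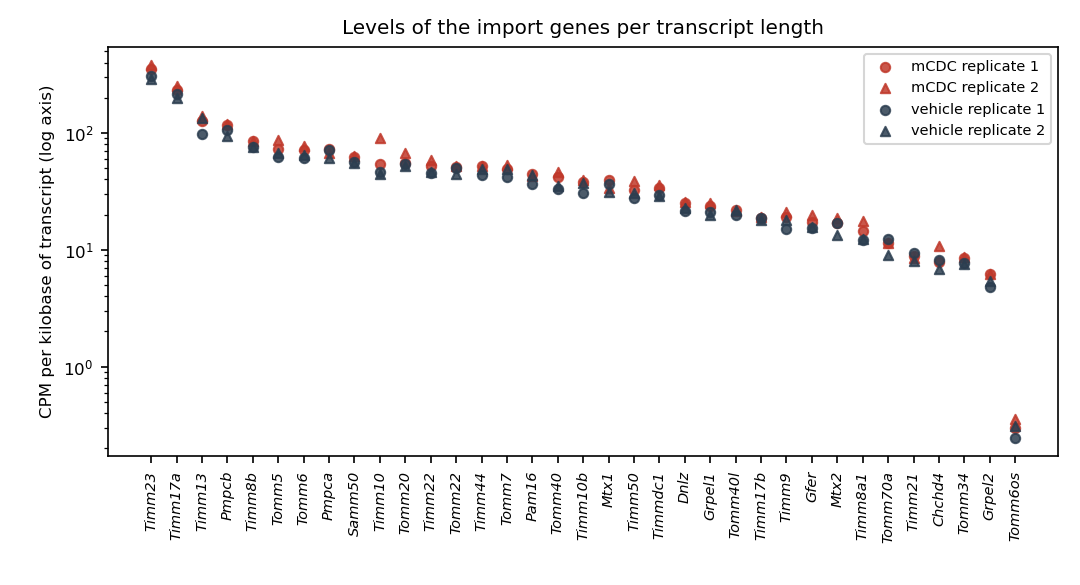
Level of each tested import gene in CPM per kilobase (log axis) in each library, ordered by mean. Colours and symbols mark the 4 libraries. Timm23 and Timm17a lie highest, and Tomm6os, whose reads cannot be separated with certainty from those of Tomm6, lies lowest at 0.302.

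Relative to vehicle, import genes were higher in mCDC-treated soleus in 34 of the 35 tested members, by a median of 0.22 on the log2 scale (1.17-fold). Across all 13652 genes tested, 48.4% lay above 0 and the median was -0.01. Both mCDC libraries exceeded both vehicle libraries for 25 members, none was lower in both, and 10 overlapped, while 19.2% of all genes were higher in both and 19.5% lower in both. Summed over the members, the level came to 2437 and 2603 CPM with mCDCs and to 2196 and 2147 CPM with vehicle. In a bulk library, fewer or more cells of a type and less or more RNA per cell cannot be told apart. The rule for a call, an unadjusted p under 0.05 together with more than a 1.5-fold difference, was met by 1 member, Timm10, higher with mCDCs, and by none that was lower. The corresponding shares of all genes were 1.26% for higher and 2.74% for lower. At an unadjusted p under 0.05 alone, 4 members passed, all of them higher, against 2.85% of all genes for higher and 6.94% for either. These were Timm10, Tomm40, Timm8a1 and Timm23. Under the other tools, tests, scalings, filters and corrections, 2 or 3 members passed. Leaving out a library makes a comparison of 1 library with 2, in which the spread comes from the larger group and the lone library is assumed to vary like it, so members can fail there with folds of the same size. In such fits the log2 fold change ran from 0.26 to 0.98 for Timm10 and from 0.28 to 0.43 for Tomm40. It ran from 0.24 to 0.51 for Timm8a1 and from 0.25 to 0.35 for Timm23. All 4 were lowest without mCDC replicate 2 and highest without mCDC replicate 1. No member passed edgeR's quasi-likelihood test after Benjamini-Hochberg adjustment over all genes, as none of the 13652 genes did (0%), and the lowest adjusted p among members was 0.684. DESeq2 gave 2 members at an unadjusted p under 0.05 (3.96% of its 18132 genes), 1 that met the call rule (2.35%) and none after adjustment (0.265%, or 48 genes).

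Taken library by library, mCDC replicate 1 exceeded vehicle replicate 1 in 32 of 35 members and vehicle replicate 2 in 32. For mCDC replicate 2 the counts were 31 and 33. mCDC replicate 2 was above mCDC replicate 1 in 28 of 35 members and vehicle replicate 2 above vehicle replicate 1 in 18, so the mCDC libraries differed from each other in a common direction. Without mCDC replicate 2 the median log2 fold change was 0.16, and without mCDC replicate 1 it was 0.28. Leaving out a library lowered the value more than 1.5 times, or turned its direction, for 23 of the 35 tested members. For 7 of these it fell farthest without mCDC replicate 2, for Mtx1 without mCDC replicate 1, and for the others without a vehicle library.

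**Figure D2:**
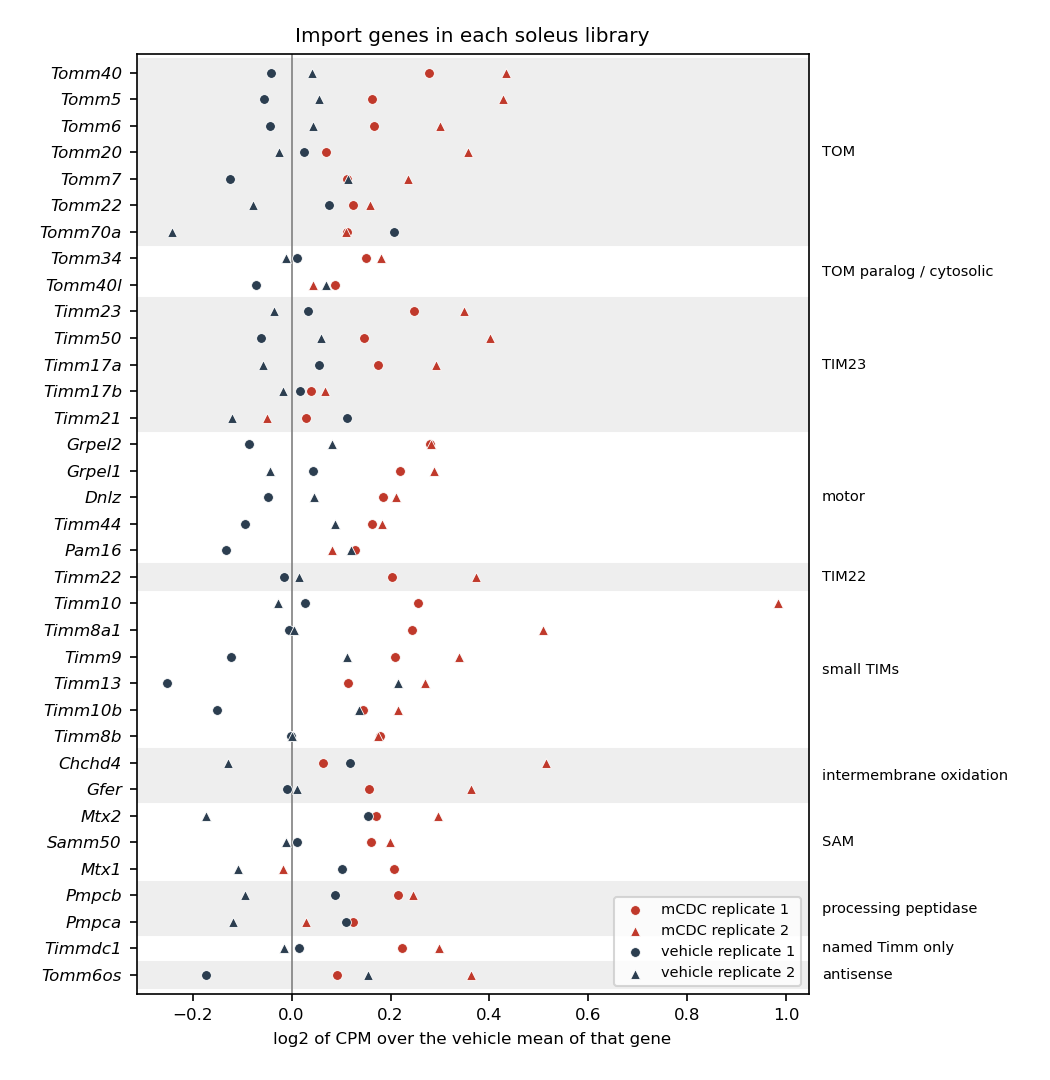
Each tested import gene in each library as log2 of its CPM over the mean of the vehicle libraries, grouped by machinery. The mCDC libraries lie to the right of the vehicle libraries for 25 members, and Timm10 in mCDC replicate 2 lies farthest right.

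At the outer membrane, the TOM complex has the channel Tomm40, the receptors Tomm20, Tomm22 and Tomm70a, and the small subunits Tomm5, Tomm6 and Tomm7. All 7 were higher on average and 5 did not overlap, with a median log2 fold change of 0.22. Of all genes tested, 48.4% were above 0 and 19.2% were higher without overlap. Tomm40 measured 65.8 and 73.3 CPM with mCDCs and 52.7 and 55.9 CPM with vehicle. These libraries did not overlap, and the difference was 0.36 on the log2 scale (standard error 0.14, unadjusted p = 0.0301, adjusted p = 0.705 by edgeR's quasi-likelihood test with Benjamini-Hochberg adjustment). Tomm20, the main presequence receptor, measured 149.3 and 182.3 CPM against 144.8 and 139.9, a log2 fold change of 0.22 (standard error 0.14). mCDC replicate 1 was only slightly above the vehicle libraries, and without mCDC replicate 2 the value was 0.07. Tomm22, the central receptor that organises the complex, measured 60.4 and 61.9 CPM against 58.4 and 52.5. Tomm70a, the receptor for carrier precursors, measured 68.5 and 68.4 CPM against 73.2 and 53.6, and its groups overlapped because vehicle replicate 1 was the highest library. Without vehicle replicate 2 its log2 fold change was -0.10. Tomm5 measured 47.8 and 57.5 CPM against 41.1 and 44.4 without overlap, Tomm6, uncertain because of its antisense RNA, differed by a log2 fold change of 0.23 without overlap, and Tomm7 by 0.17 with overlap. The coordinates of Tomm40 are chr7:19701313-19715438 on the minus strand and those of Tomm20 chr8:126930667-126945844, also minus.

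Tomm40l, a relative of the channel, measured 60.6 and 58.7 CPM with mCDCs and 54.2 and 59.8 with vehicle, and its groups overlapped. Per length, the ratio of Tomm40 to Tomm40l was 1.90 and 2.18 with mCDCs and 1.70 and 1.63 with vehicle. The channel thus exceeded its relative in every library, by more in the mCDC libraries, though this ratio was not tested and 59.6% of the words of Tomm40l are shared. Tomm34 measured 17.95 and 18.3 CPM against 16.3 and 16.0, a difference of 0.17 on the log2 scale.

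In the inner membrane, TIM23 comprises the channel Timm23, its partners Timm17a and Timm17b, the receptor Timm50 and Timm21, which contacts TOM. Timm23 (chr14:32180162-32201898, minus strand) measured 274.3 and 294.2 CPM with mCDCs and 236.7 and 225.7 with vehicle. The groups did not overlap, and differed by 0.30 on the log2 scale (standard error 0.13, unadjusted p = 0.0495, adjusted p = 0.713). Timm50 measured 48.8 and 58.3 CPM against 42.3 and 46.0, a log2 fold change of 0.28 (standard error 0.15). Its groups did not overlap, and without mCDC replicate 2 the value was 0.15. The paralogs Timm17a and Timm17b, which form alternative channels, differed in level and in fold change. Timm17a measured 148.7 and 161.4 CPM against 136.9 and 126.6, a log2 fold change of 0.23. Timm17b, on the X chromosome, measured 26.5 and 27.1 CPM against 26.1 and 25.5, a log2 fold change of 0.05. Per length, Timm17a was 12.4 and 13.2 times Timm17b with mCDCs and 11.6 and 11.0 times with vehicle, and these ratios did not overlap, though the difference was not tested. Timm21 had the only negative log2 fold change among the tested members, -0.01, with 21.5 and 20.4 CPM against 22.8 and 19.4 and overlapping groups.

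The motor pulls the precursor into the matrix with the mitochondrial Hsp70 (Hspa9). Of its 5 members, all were higher on average and 4 did not overlap, with a median log2 fold change of 0.20. Among all genes, 48.4% lay above 0 and 19.2% were higher without overlap. Timm44, the anchor of the motor, measured 92.6 and 94.1 CPM with mCDCs and 77.6 and 88.1 with vehicle, 0.17 ± 0.13 on the log2 scale (fitted difference ± standard error). Without vehicle replicate 1 it was 0.09. The nucleotide exchange factors Grpel1 and Grpel2 release the spent Hsp70. Grpel1 measured 84.1 and 88.1 CPM against 74.3 and 70.0, and Grpel2 measured 24.96 and 24.99 CPM against 19.3 and 21.8. Both were higher in both mCDC libraries, with log2 fold changes of 0.25 and 0.28, and the per-length ratio of Grpel1 to Grpel2 overlapped between the groups (3.82 and 3.995 against 4.36 and 3.65). Dnlz, which keeps Hsp70 soluble, differed by a log2 fold change of 0.20 without overlap, and Pam16, a regulator of the motor's J protein, by 0.10 with overlap. Hspa9 itself, which is not a member, measured 689.7 and 783.6 CPM against 677.6 and 620.3, a log2 fold change of 0.18.

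TIM22 inserts carriers, and its pore subunit Timm22 measured 39.2 and 44.0 CPM with mCDCs and 33.7 and 34.4 with vehicle. The difference was 0.29 on the log2 scale (standard error 0.14), without overlap. The small TIMs that deliver carriers to it included the member with the largest difference. Timm10 (chr2:84826997-84830213, plus strand), which pairs with Timm9 as a chaperone ring, measured 34.2 and 56.7 CPM against 29.2 and 28.1, means of 45.5 ± 15.9 and 28.7 ± 0.782 (SD, n = 2). It rose by 0.66 on the log2 scale (1.58-fold, standard error 0.23, unadjusted p = 0.0197, adjusted p = 0.684). The groups did not overlap, but mCDC replicate 2 lay far above mCDC replicate 1. Without mCDC replicate 2 the log2 fold change was 0.26 and below the 1.5-fold limit, and the largest value among members was then that of Grpel2, 0.28. Without mCDC replicate 1 it was 0.98, a value that rests on mCDC replicate 2 alone. Without a vehicle library the fold stayed of similar size, at 0.70 without vehicle replicate 1 and 0.63 without vehicle replicate 2, although with the lone vehicle library the unadjusted p was above 0.05. No 31-base word of Timm10 is shared with another gene.

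Timm9, its partner, measured 15.98 and 17.5 CPM with mCDCs and 12.7 and 14.95 with vehicle, a log2 fold change of 0.27, without overlap. The per-length ratio of Timm9 to Timm10 was 0.350 and 0.231 with mCDCs and 0.326 and 0.399 with vehicle, and it overlapped between the groups. Among the relatives that make the other chaperone ring, Timm8a1, on the X chromosome, measured 20.7 and 24.8 CPM against 17.4 and 17.5, a log2 fold change of 0.38 (standard error 0.16, unadjusted p = 0.0494, adjusted p = 0.713). Timm8a1 did not overlap, while 41.8% of its words are shared. Timm8b measured 44.3 and 44.2 CPM against 39.1 and 39.2, and Timm13 measured 68.3 and 76.1 CPM against 53.0 and 73.3. Timm8b separated the groups with little spread in either (log2 fold change 0.18), whereas Timm13 overlapped, since vehicle replicate 2 matched the mCDC libraries. Timm10b, a subunit of the TIM22 complex, measured 22.6 and 23.8 CPM against 18.4 and 22.5 without overlap. Of the 6 small TIMs tested, all were higher on average and 5 did not overlap, with a median log2 fold change of 0.23. The shares of all genes were 48.4% above 0 and 19.2% higher without overlap.

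**Figure D3:**
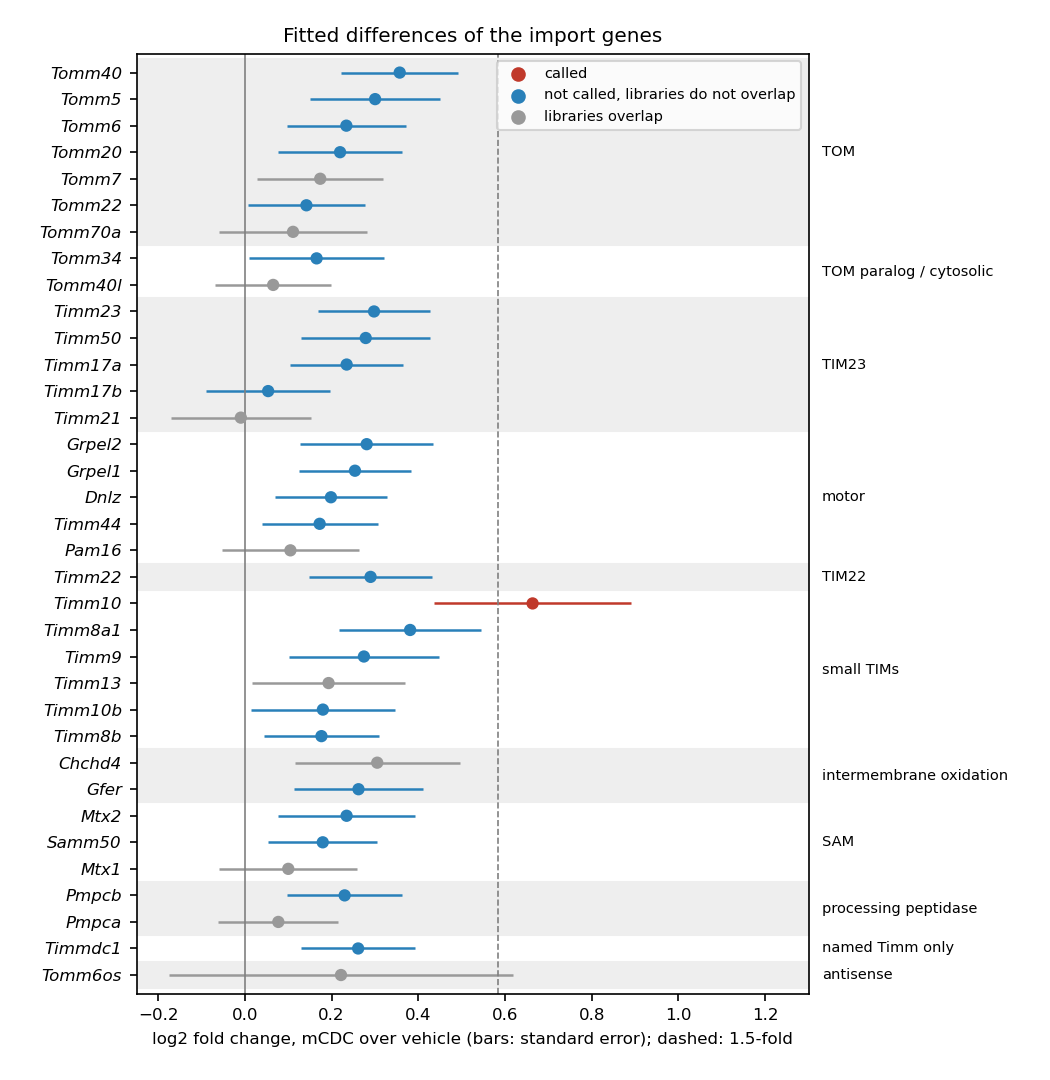
Fitted log2 fold change of each tested import gene, mCDC over vehicle, with bars of 1 standard error, and the dashed line at the 1.5-fold threshold. Colours separate the called member, Timm10, from members whose libraries do not overlap and those whose libraries overlap.

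The oxidative folding relay of the intermembrane space consists of Chchd4, which oxidises cysteines in incoming proteins, and Gfer, which reoxidises Chchd4. Gfer measured 29.5 and 34.1 CPM with mCDCs and 26.3 and 26.7 with vehicle, a log2 fold change of 0.26, without overlap. Chchd4 measured 27.2 and 37.1 CPM against 28.2 and 23.8, a log2 fold change of 0.31 (standard error 0.19). Its groups overlapped, since mCDC replicate 1 was below vehicle replicate 1, and without mCDC replicate 2 the value was 0.06. The SAM complex folds beta-barrels into the outer membrane. Its core Samm50, a beta-barrel itself, measured 287.9 and 295.5 CPM against 259.4 and 255.6, or 0.18 higher on the log2 scale (standard error 0.13). Samm50 did not overlap, and neither did the metaxin Mtx2, which measured 50.3 and 54.8 CPM against 49.7 and 39.6, while Mtx1 overlapped (log2 fold change 0.10). The matrix peptidase then removes presequences. Its catalytic subunit Pmpcb measured 139.9 and 142.8 CPM against 128.1 and 113.0, a log2 fold change of 0.23 without overlap. Its partner Pmpca measured 173.3 and 162.1 CPM against 171.5 and 146.5, and the groups overlapped. Per length, Pmpca stood at 0.626 and 0.574 of Pmpcb with mCDCs and at 0.677 and 0.656 with vehicle, a ratio that was lower in both mCDC libraries but was not tested.

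Some members were included by name only. Timmdc1, an assembly factor of respiratory complex I, measured 53.4 and 56.2 CPM with mCDCs and 46.2 and 45.2 with vehicle, a log2 fold change of 0.26, without overlap. Tomm6os, as uncertain as Tomm6, lay near 1 CPM in every library, from 0.725 to 1.05, and its groups overlapped. Leaving both out, 32 of 33 members were above 0 and the median log2 fold change was 0.22.

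The proteins that work with these machineries were examined as a fixed group of 37 partner genes. Of these, 30 were above 0, with a median log2 fold change of 0.09, 16 were higher and 1 lower without overlap, and 0 met the call rule (3 at an unadjusted p under 0.05, and 0 by DESeq2). Of all genes tested, 48.4% were above 0, 19.2% were higher and 19.5% lower without overlap, and 1.26% and 2.74% were called higher and lower. Hspd1, the chaperonin of the matrix, measured 215.5 and 211.9 CPM with mCDCs and 183.3 and 160.2 with vehicle (log2 fold change 0.32, standard error 0.13, adjusted p = 0.713). Mtch2, an outer membrane insertase, Dnajc19, the J protein of the motor, Romo1, a small subunit of TIM23, and Agk, a TIM22 subunit, had log2 fold changes of 0.08, 0.07, 0.11 and 0.09, all with overlapping groups. The 1 partner that was lower without overlap was Mtx3, a metaxin, chosen after its values were seen, at 21.5 and 22.2 CPM against 27.4 and 29.9 (log2 fold change -0.39, unadjusted p = 0.0306, adjusted p = 0.708).

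Other nuclear genes for mitochondria were set beside the import genes. Of all genes tested, 48.4% were above 0 and 19.2% were higher without overlap. Among the 77 genes of the mitochondrial ribosome, all were above 0 with a median log2 fold change of 0.16, and 56 were higher without overlap (72.7%, against 71.4% of import genes). Among 81 tested nuclear genes of the respiratory chain and ATP synthase, 79 were above 0 with a median of 0.15. Higher without overlap were 29 of them (35.8%, against 19.2% of all genes). None of these genes met the call rule by edgeR or by DESeq2. At an unadjusted p under 0.05 there were 3 and 1 by edgeR, and 2 and 1 by DESeq2. The shares of all genes at that threshold were 6.94% by edgeR and 3.96% by DESeq2. The mean log2 CPM of import genes minus that of ribosomal genes was -0.01 and 0.02 with mCDCs and -0.01 and -0.08 with vehicle, and that minus the respiratory genes was -2.59 and -2.60 against -2.55 and -2.78, with overlap. No list was tested against another.

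**Figure D4:**
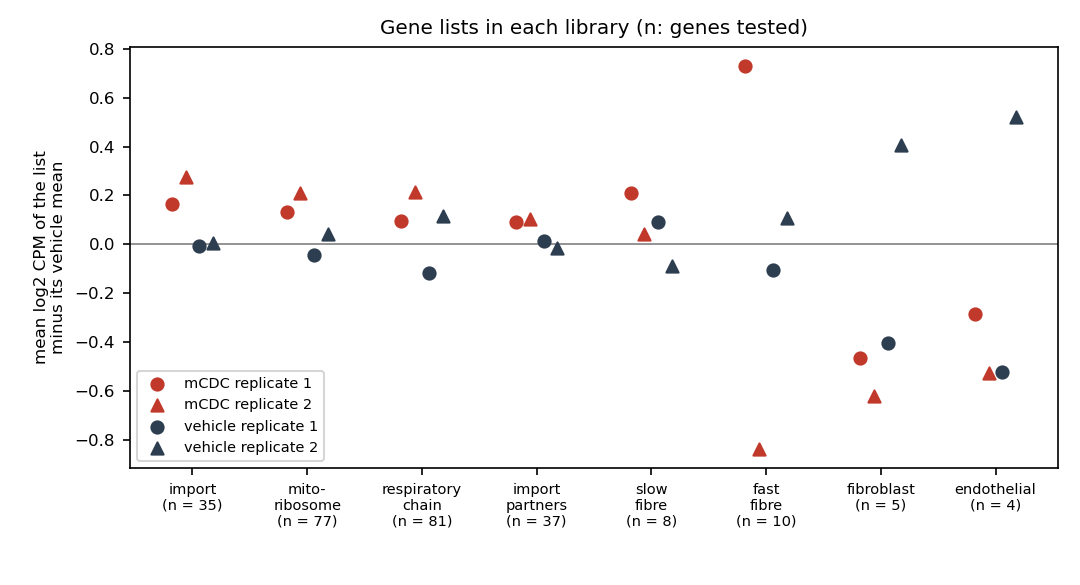
Mean log2 CPM of 8 gene lists in each library, minus the vehicle mean of that list, with the number of tested genes under each name. The mCDC libraries lie above both vehicle libraries for the import, mitochondrial ribosome and import partner genes, vehicle replicate 2 lies between them for respiratory genes, and vehicle replicate 2 lies highest for fibroblast and endothelial markers.

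Markers of the cells in a soleus sample differed between libraries as well. The defining slow fibre genes were abundant (sums of 85810 to 98587 CPM with mCDCs, 80833 to 96016 with vehicle) with 5 of 8 higher without overlap and a median log2 fold change of 0.14, and fast fibre genes overlapped for all 10, with Myh4, of the fastest fibres, from 47.5 CPM in mCDC replicate 2 to 2096 CPM in mCDC replicate 1. The 5 fibroblast markers were all below 0, and 2 (Pdgfra and Lum) met the call rule as lower. Their sum was 304.4 and 265.6 CPM with mCDCs and 290.4 and 491.9 CPM with vehicle, so vehicle replicate 2 was high and vehicle replicate 1 lay between the mCDC libraries. Endothelial markers followed that order, at 97.2 and 77.6 against 82.2 and 172.2 CPM. The brown adipocyte marker Ucp1 was at 0 in 3 libraries and at 1 count in mCDC replicate 1, and Ppargc1a of that list met the call rule as lower (log2 fold change -0.70), while 4 of 5 were above 0. Medians of the other lists were -0.28 for white adipocyte, -0.35 for macrophage, 0.03 for satellite cell, -0.67 for erythroid, -0.29 for Schwann cell and -0.87 for tendon genes. Called genes went both ways in 3 of these lists, with Csf1r lower among macrophage genes and Cd68 higher (4.13 and 15.4 CPM with mCDCs against 2.71 and 4.15 CPM with vehicle, groups that overlap), Pax7 higher and Chodl lower among satellite cell genes, and Scx higher and Tnmd and Fmod lower among tendon genes. Among erythroid genes Hba-a2 was called lower. These counts stand against 1.26% of all genes called higher, 2.74% called lower, and 19.2% higher without overlap. The part of these markers in the import gene differences was not tested. Without vehicle replicate 2, the library with the highest fibroblast and endothelial sums, the median log2 fold change of import genes was 0.24, with 31 of 35 above 0. That fit rests on a lone vehicle library and was no test of the part of these markers.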

How the data were processed

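RNA was sequenced from 4 soleus libraries (2 mCDC, 2 vehicle, after 12 months). The authors deposited expected counts per gene symbol, made with RSEM 1.2.15 and Bowtie2 2.1.0 on mm10 per the submitters' processing notes. The labels name the TruSeq Stranded mRNA kit and the study's methods another kit. Totals were 22481391 to 27187425 per library.

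Counts were rounded, filtered with filterByExpr, scaled by TMM and fitted with edgeR 4.0.16 (R 4.3.3, quasi-likelihood test, legacy = FALSE, ~ group) across 13652 genes, with Benjamini-Hochberg adjustment. A prior count of 2 entered only the log2 CPM used for the length and GC correction and the replicate correlation. A call is a fold change over 1.5 with unadjusted p under 0.05, the study's thresholds. The procedure was tested on simulated data. DESeq2 1.42.0, other edgeR tests, scalings, filters, a replicate block, a length and GC correction and leaving out each library were alternatives. The rule for named genes took those called, the largest non-overlapping differences, core subunits and paralog pairs, and the remaining members are given more briefly. The members, lists and markers of other cells were chosen with earlier results of these data known. Lengths and coordinates are from GENCODE M21 (GRCm38), which matched 37 of 37 members, and promoters from RefSeq. P-values measure the spread between these libraries alone.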

Additional observations from a re-analysis of the deposited data

How the results depend on the processing

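With 2 libraries a group, the spread behind each value rests on few samples, and depth was similar in all. The count of all genes called was 546, and 416 to 673 under the other tools, tests, scalings, filters and corrections. Leaving out 1 library gave 348 to 1107 (the lowest without mCDC replicate 2, the highest without vehicle replicate 1, and 941 when mCDC replicate 1 was left out), and the share of higher calls moved from 31.5% to 24.7% without vehicle replicate 1 and to 42.2% without mCDC replicate 1. Import genes called were 1, but 0 with the replicate block together with length and GC removed, and 0 to 1 when a library was left out. The median log2 fold change of import genes was 0.22, 0.20 to 0.24 under the other settings, and 0.16 to 0.28 when a library was left out. The count of import genes higher without overlap was 25, 25 or 26 under other settings and 29 to 31 of 35 when a library was left out, where 30.1% to 36.7% of all genes were also higher without overlap. None was lower without overlap except 2 without vehicle replicate 2, Timm21 and Tomm70a. Among the 35 tested members, those that turned direction when a library was left out had log2 fold changes of -0.098 to 0.357 for Tomm70a, -0.0334 to 0.199 for Pmpca, -0.0165 to 0.213 for Mtx1, -0.0171 to 0.444 for Timm13, -0.0119 to 0.236 for Pam16 and -0.122 to 0.115 for Timm21. With length and GC removed Timm17b was at -0.0177 and Timm21 at 0.0414, and with DESeq2 Timm21 was at 0.00117. The check of the 10 members outside the rule for named genes was added after the data were seen. The cause was not tested. With length and GC removed, Tomm40, Timm23 and Timm8a1 had log2 fold changes of 0.26, 0.25 and 0.36 (0.36, 0.30 and 0.38 without the correction) and no longer passed the unadjusted threshold of 0.05 in edgeR's quasi-likelihood test, while Timm10 still passed and Grpel1 and Grpel2 passed as well.

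The replicate numbers in the labels do not say that they mark a shared litter or day, and deviations of same-numbered libraries had a correlation across 13652 genes of -0.04. That correlation cannot show whether same-numbered samples shared a litter or day, so a pairing was not known. With the replicate block, Timm8a1 had an unadjusted p of 0.0547, 480 genes and 1 import gene were called and the median log2 fold change of import genes was 0.23.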

Other observations

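Genes of the stress response that cells mount when protein import falters, many of them targets of Atf4, were read from the same fit. Of 13 listed genes 12 were tested, with a median log2 fold change of 0.17. Psat1, an enzyme of serine synthesis, rose with 7.23 and 9.50 CPM with mCDCs against 4.88 and 4.47 CPM with vehicle (log2 fold change 0.84, standard error 0.23, adjusted p = 0.619). Chac1, which degrades glutathione, fell with 8.10 and 4.98 CPM against 14.4 and 16.8 CPM (log2 fold change -1.25, standard error 0.25, adjusted p = 0.462 by edgeR and 0.0125 by DESeq2). Atf4 itself measured 281.1 and 383.5 CPM against 250.7 and 271.3 CPM without overlap (log2 fold change 0.35, standard error 0.17, adjusted p = 0.726 by edgeR). Atf5, Ddit3, Asns and Phgdh overlapped between the groups, with log2 fold changes of -0.003, 0.009, -0.05 and -0.01. Trib3 and Mthfd2 overlapped as well, at 0.30 and 0.14. DESeq2 called Sesn2 as well (log2 fold change 0.69, adjusted p = 0.999), with 3 genes called in all and Chac1 alone past adjustment. Of the 12, 5 were higher and 1 lower without overlap, where 19.2% of all genes were higher and 19.5% lower. The call rule was met by 1.26% of all genes as higher and 2.74% as lower in edgeR, and by 2.35% in DESeq2.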
